A study of Mus musculus with 8 samples.

Results

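The 8 genes described here encode the megalin-cubilin uptake route of the kidney: Lrp2, Cubn, Amn, Dab2, Clcn5, Folr1, Lrpap1 and Ocrl. They were taken by name from the table of the whole series, which lists 49315 genes, and each name matched exactly 1 Ensembl ID. All 8 passed the filter on low counts, which kept 18485 genes. Messenger RNA had been sequenced from 8 mouse kidneys, 4 labelled control and 4 labelled conditional knockout of Kdm1a. Kdm1a encodes the histone demethylase LSD1. The labels give no strain, age, sex, Cre driver or deleted exon, so the cells in which the gene was removed are not known here. They also do not say that each kidney came from its own animal, so the p values below measure the spread between these libraries.

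The cells of the proximal tubule recover nearly all protein and many vitamins that pass the glomerular filter. Megalin (Lrp2) is a very large lipoprotein receptor-like protein of the brush border, and cubilin (Cubn) is a large partner with no membrane span of its own, held at the brush border by amnionless (Amn). Loaded receptors enter clathrin-coated pits through the adaptor Dab2, release their cargo in endosomes that are acidified with the help of the chloride-proton exchanger ClC-5 (Clcn5), and return to the surface. The lipid phosphatase Ocrl acts on these endosomes, and in humans defects of CLCN5 and OCRL cause Dent disease and Lowe syndrome, in which protein is lost in the urine.

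Total counts ran from 19524945 to 28544511 per library. Kdm1a itself averaged 112.8 ± 4.77 CPM (counts per 1000000 counts of the library) in controls and 93.6 ± 1.88 CPM in knockouts (mean ± SD, n = 4 each). The fitted change was −0.27 on the log2 scale (SE 0.05, adjusted p = 0.0194 by edgeR's quasi-likelihood test), and the groups did not overlap. The adjusted p rose above 0.05 (0.0529 to 0.0765) when control replicate 1 or 3 or knockout replicate 1, 2 or 4 was left out. In these fits the change of Kdm1a missed the threshold. Over all tested genes, control replicate 2 and knockout replicate 3 lay between the other libraries on the first principal component, at 9.56 and 9.71, against −78.7 to −52.4 for the other controls and 48.3 to 68.4 for the other knockouts. Transcripts of 4 Y-linked genes were present in 5 libraries (at least 229 CPM summed) and nearly absent in control replicate 2 and knockout replicates 1 and 4 (at most 2.63 CPM). Summed over 12 adrenal genes, the level reached 2770 CPM in knockout replicate 1, with 383 CPM for knockout replicate 4 and 154 CPM for control replicate 4, against 17.7 to 24.7 CPM in the rest. Kidney markers were present in both groups. A list of 23 proximal tubule genes summed to between 1050 and 4150 CPM in controls and between 208 and 695 CPM in knockouts, and 5 podocyte genes to 378 to 559 CPM and 279 to 340 CPM.

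The 3 genes of the receptor complex were each lower in every knockout than in any control. Lrp2 (ENSMUSG00000027070, chromosome 2, 69424340 to 69586065, minus strand, 80 exon blocks, GRCm38) stood at 244, 122, 227 and 377 CPM in control replicates 1 to 4 and at 49.2, 18.7, 87.2 and 49.96 CPM in knockout replicates 1 to 4. The lowest control was replicate 2 and the highest knockout was replicate 3, and the groups did not overlap. Megalin transcript averaged 242 ± 104 CPM in controls and 51.3 ± 28.01 CPM in knockouts, 21.1% of the control mean. Its log2 difference was −2.24, with SE 0.46 and an adjusted p of 0.0205. In bulk tissue, fewer proximal tubule cells and less RNA per cell cannot be told apart. This holds for every tubule gene below.

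Cubn (ENSMUSG00000026726, chromosome 2, 13276338 to 13491813, minus strand, 66 exon blocks) had the largest change of the 8 genes. Its levels were 51.9, 21.7, 44.8 and 90.8 CPM in the controls and 3.04, 2.16, 12.7 and 6.04 CPM in the knockouts. The order of the libraries was that of Lrp2, with control replicate 4 highest and knockout replicate 2 lowest. Cubilin transcript averaged 52.3 ± 28.7 CPM in controls and 5.99 ± 4.77 CPM in knockouts, 11.4% of the control mean, and the log2 fold change was −3.10 (SE 0.59, adjusted p = 0.0183). In raw reads this was 469 to 1997 counts in a control library and 43 to 367 in a knockout library. Gm13270, an antisense transcript that overlaps the end of Cubn, had 8 to 28 counts per library. Strand handling is not given in the sources used here, so reads of the pair cannot be told apart.

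Amn (ENSMUSG00000021278, chromosome 12, 111271111 to 111276426, plus strand, 12 exon blocks) encodes the short membrane protein that carries cubilin to the surface. It was counted at 39.9, 16.0, 32.5 and 65.5 CPM in the controls and at 5.96, 1.51, 14.0 and 6.15 CPM in the knockouts. The gap between the groups was narrow, 16.0 CPM in control replicate 2 against 14.0 CPM in knockout replicate 3, while the other 6 libraries were far apart. The means were 38.5 ± 20.6 and 6.92 ± 5.22 CPM, and the fitted log2 difference was −2.46, with SE 0.60 and an adjusted p of 0.0305. With the Y-linked covariate Amn missed the threshold (adjusted p = 0.0543), as it did in the 5 libraries with Y-linked transcripts (adjusted p = 0.0749). Knockout replicate 2 had 30 counts of Amn, the fewest of any of the 8 genes in any library.

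Folr1 and Lrpap1 were also called lower, with overlapping groups. Folr1 (ENSMUSG00000001827, chromosome 7, 101858331 to 101870788, minus strand) encodes the folate receptor of the brush border. It stood at 69.2, 31.0, 57.7 and 99.3 CPM in controls and 14.0, 13.1, 34.4 and 19.0 CPM in knockouts. Only knockout replicate 3 reached into the control range, above control replicate 2. The means were 64.3 ± 28.3 and 20.1 ± 9.86 CPM, and the log2 difference was −1.67, with SE 0.39 and an adjusted p of 0.0286. Anapc15 overlaps Folr1 on the opposite strand, with 307 to 579 counts per library. Its log2 difference was −0.32, with SE 0.12 and an adjusted p of 0.103.

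Lrpap1 (ENSMUSG00000029103, chromosome 5, 35091501 to 35105766, minus strand) encodes the receptor-associated protein, a chaperone that keeps megalin and its relatives free of ligand inside the endoplasmic reticulum. Its levels were 176, 132, 166 and 237 CPM in controls and 104, 106, 134 and 114 CPM in knockouts. Again knockout replicate 3 lay just above control replicate 2, and no other pair overlapped. The fall was shallow, from 178 ± 43.7 to 115 ± 13.8 CPM (−0.63 on the log2 scale, with SE 0.16 and adjusted p = 0.0367), so the chaperone kept 64.6% of its control mean where megalin kept 21.1%. With the Y-linked covariate Lrpap1 missed the threshold (adjusted p = 0.0525).

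Dab2, Clcn5 and Ocrl were not called. Dab2 (ENSMUSG00000022150, chromosome 15, 6299788 to 6440712, plus strand) encodes the clathrin adaptor that binds the megalin tail. It was at 106, 94.3, 108 and 133 CPM in the controls and 114, 93.9, 110 and 100 CPM in the knockouts, so 7 of the 8 libraries lay between 93.9 and 114 CPM and only control replicate 4 was higher. The log2 fold change was −0.08 (SE 0.11, adjusted p = 0.621), and it turned to 0.01 (adjusted p = 0.932) without control replicate 4. Macrophages, endothelium and the adrenal cortex are also known to make Dab2. Of 8 macrophage genes, 4 were called higher in the knockouts (Mrc1, C1qc, C1qa and Lyve1), against 6.61% of all tested genes. The other 4 were not called, and among them Csf1r had a negative change (−0.40, adjusted p = 0.27). The list summed to 126 to 153 CPM in controls and 174 to 213 CPM in knockouts. The endothelial list of 5 genes had 1 called lower, against 8.27% of all tested genes. It summed to 361 to 560 CPM in controls and 249 to 420 CPM in knockouts. The part of these cell types in the level of Dab2 was not tested. With the adrenal level as a covariate the change of Dab2 was −0.15 (adjusted p = 0.395).

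Clcn5 (ENSMUSG00000004317, chromosome X, 7153810 to 7319358, minus strand) was at 61.7, 54.9, 68.0 and 88.9 CPM in the controls and 40.6, 34.1, 67.7 and 34.6 CPM in the knockouts. Knockout replicates 1, 2 and 4 lay below every control, and knockout replicate 3 lay among them. The log2 fold change of −0.63 was as large as that of Lrpap1, but its standard error was 0.24 and the adjusted p was 0.0975. Without knockout replicate 3 the change was −0.89 and passed the threshold (adjusted p = 0.0168), as it also did without control replicate 2 (−0.72, adjusted p = 0.0477).

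Ocrl (ENSMUSG00000001173, chromosome X, 47912387 to 47965868, plus strand) differed from the other 7 genes in that its fitted change was positive. It stood at 50.2, 61.4, 54.7 and 48.9 CPM in the controls and 75.1, 63.9, 59.6 and 69.1 CPM in the knockouts. Control replicate 2, the highest control, lay above knockout replicate 3, the lowest knockout, and all other knockouts lay above all controls. Its fitted log2 difference of 0.32 (SE 0.10) had an unadjusted p of 0.00984 and an adjusted p of 0.0573. The gene lies on the X chromosome, and within each genotype the libraries without Y-linked transcripts were the highest. Among the 5 libraries with such transcripts it was at 48.9 to 54.7 CPM in 3 controls and 59.6 to 63.9 CPM in 2 knockouts, with a log2 fold change of 0.27 (adjusted p = 0.0730). After adjustment for the Y-linked level the change was 0.26 and passed the threshold (adjusted p = 0.0406). It also passed without control replicate 2 (adjusted p = 0.0105) or without knockout replicate 3 (adjusted p = 0.0376).

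**Figure D1:**
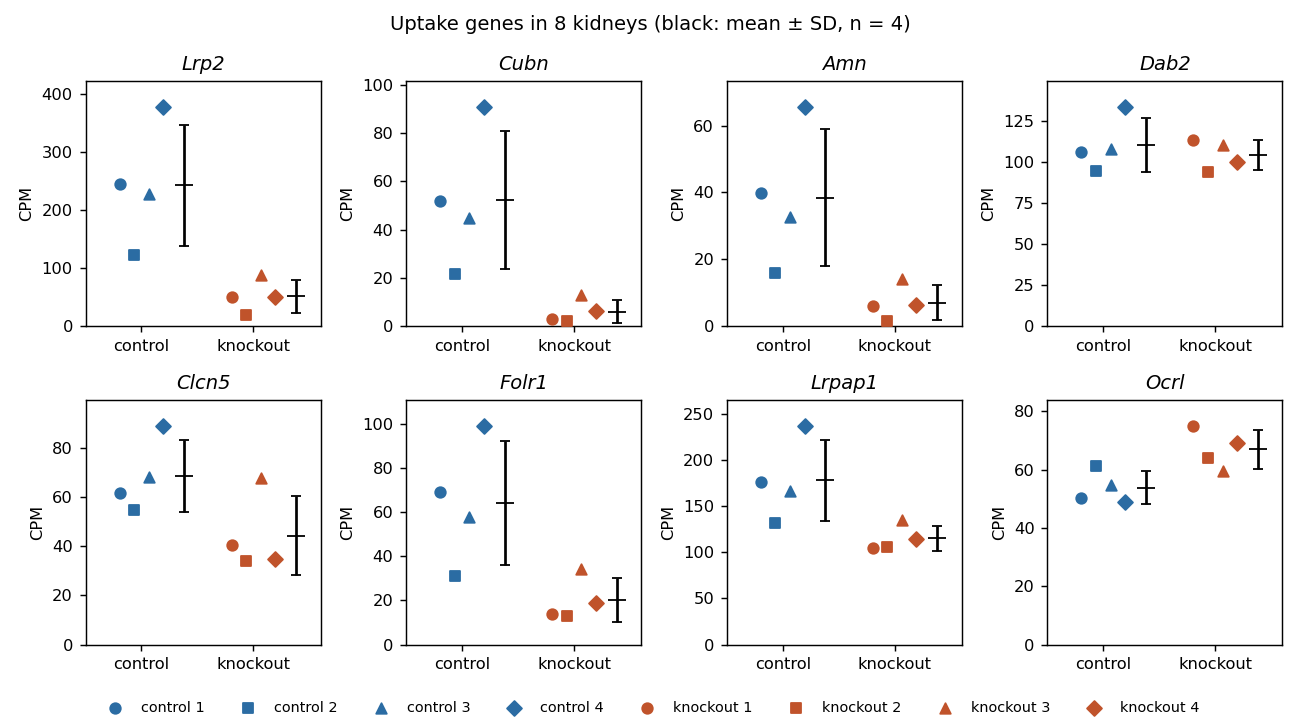
CPM of the 8 uptake genes in each library, 1 panel per gene with its own axis from 0, controls in blue and knockouts in orange, replicate numbers by marker shape, and the mean ± SD of 4 libraries in black. Lrp2, Cubn and Amn separate the groups completely, Folr1 and Lrpap1 overlap by 1 library, Dab2 overlaps throughout, and Ocrl is the only panel in which the knockouts have the higher mean.

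Among the 8 genes, edgeR called 5 lower and 0 higher, where 8.27% of all tested genes were called lower and 6.61% higher. At an unadjusted p under 0.05 the counts were 6 and 1, a threshold for which no share over all genes is given here. DESeq2 also called 6 lower and 1 higher, where it called 2509 and 1997 over all genes. The knockouts lay below all controls for 3 of the 8 genes, against 9.58% of tested genes, and above all controls for 0, against 9.29%. The median log2 fold change was −1.15 over the 8 genes and 0.004 over all tested genes. The number of calls depended on which libraries were kept, as did the totals over all genes. Without control replicate 1, control replicate 3, knockout replicate 1 or knockout replicate 4, 0 of the 8 were called. At an unadjusted p under 0.05, 5 or 6 were lower in each of these fits, again with no share over all genes given here. Without control replicate 4 only Cubn remained, and without knockout replicate 2 only Lrp2 and Cubn. Without control replicate 2 or without knockout replicate 3, 7 of the 8 were called, all but Dab2, with Ocrl higher. Over all genes these fits called 7084 and 3192, and the fits without another library 153 to 695. When control replicate 2 and knockout replicate 3, the intermediate libraries, were both left out, the log2 fold changes were −4.02 for Cubn, −3.31 for Amn and −2.85 for Lrp2. In the adrenal covariate fit only Lrp2 and Cubn were called (adjusted p = 0.0421 and 0.0387). The signs did not depend on a library for 7 of the 8 genes, the exception being Dab2.

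Levels were compared between genes as CPM per kilobase of exon. In the controls Lrpap1 was the most abundant at 43.2 ± 10.6, followed by Folr1 (27.99 ± 12.3), Amn (22.8 ± 12.2), Dab2 (15.1 ± 2.23), Lrp2 (14.5 ± 6.25), Clcn5 (5.97 ± 1.28), Ocrl (5.67 ± 0.595) and Cubn (3.50 ± 1.92). The ranges of each pair of neighbours in this order overlapped. In the knockouts the order was Lrpap1 (27.9 ± 3.36), Dab2 (14.2 ± 1.24), Folr1 (8.76 ± 4.29), Ocrl (7.05 ± 0.703), Amn (4.10 ± 3.10), Clcn5 (3.87 ± 1.39), Lrp2 (3.07 ± 1.68) and Cubn (0.401 ± 0.320). There Lrpap1 stood above Dab2 and Lrp2 above Cubn without overlap, and the other neighbours overlapped. Cubn was last in both groups. Lrp2, Amn and Folr1 stood lower in the order of the knockouts than in that of the controls, and Dab2 and Ocrl stood higher.

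The balance within the receptor complex also differed between the groups. Per exon length, 1 unit of Lrp2 was accompanied by 0.238, 0.199, 0.221 and 0.269 units of Cubn in the controls and by 0.0691, 0.129, 0.163 and 0.135 in the knockouts. All knockout values were below all control values, with knockout replicate 1 the lowest. Amn per unit of Cubn was nearly constant in the controls, at 6.40 to 6.81. In the knockouts it was 17.4, 6.18, 9.81 and 9.02, so 3 of 4 lay above the control range and knockout replicate 2 lay just below it. Dab2 per unit of Lrp2 ran from 0.805 to 1.75 in the controls and from 2.88 to 11.4 in the knockouts, and Lrpap1 per unit of Lrp2 from 2.55 to 4.37 and from 6.26 to 22.9. These ratios are given as descriptions without a test.

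To ask whether the uptake genes changed as much as other genes of the same tubule segment, the mean log2 CPM of the 23 proximal tubule genes was subtracted in each library. That mean was 5.61 ± 0.87 in controls and 2.65 ± 0.99 in knockouts, a difference of −2.96, and 21 of the 23 genes were called lower and 0 higher (22 and 0 at an unadjusted p under 0.05, and also with DESeq2), with Pck1, Gatm and Slc7a13 at the smallest adjusted p (0.00724, 0.0110 and 0.0111). Cubn changed by −0.30 relative to the list (from −0.08 ± 0.17 to −0.38 ± 0.39) and Amn by 0.29 (from −0.51 ± 0.14 to −0.22 ± 0.35), each with p = 0.200 in an exact two-sided permutation test. The remaining 6 genes lay above all controls in all 4 knockouts on this scale, and each gave p = 0.0286 in the exact permutation test, the smallest value that the 70 assignments allow. The list mean itself did not overlap between the groups (4.44 to 6.45 in controls, 1.37 to 3.74 in knockouts). A gene with an unchanged level would therefore also reach this p. For Dab2 (own change −0.07) and Ocrl (0.32) it restates the lower list mean. The list was also chosen with earlier results known. The relative change was 0.63 for Lrp2, 1.29 for Folr1, 2.29 for Clcn5, 2.35 for Lrpap1, 2.88 for Dab2 and 3.27 for Ocrl. Cubn and Amn were not separated from the tubule list by this test. Lrp2 changed less than the list by a small margin. The other 5 genes changed much less than the list or, for Ocrl, in the opposite direction.

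**Figure D2:**
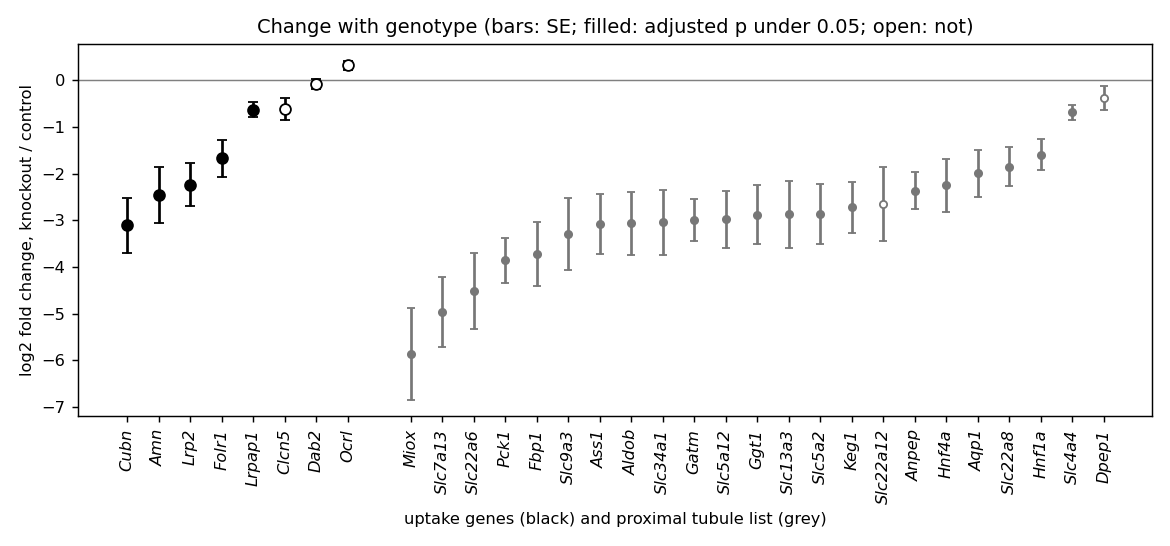
Log2 fold change, knockout over control, of the 8 uptake genes in black and the 23 genes of the proximal tubule list in grey, with standard errors and filled points for an adjusted p under 0.05. Cubn, Amn and Lrp2, from −3.10 to −2.24, lie within the grey points, whose median is −2.88, and Dab2 and Ocrl lie near or above 0.

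**Figure D3:**
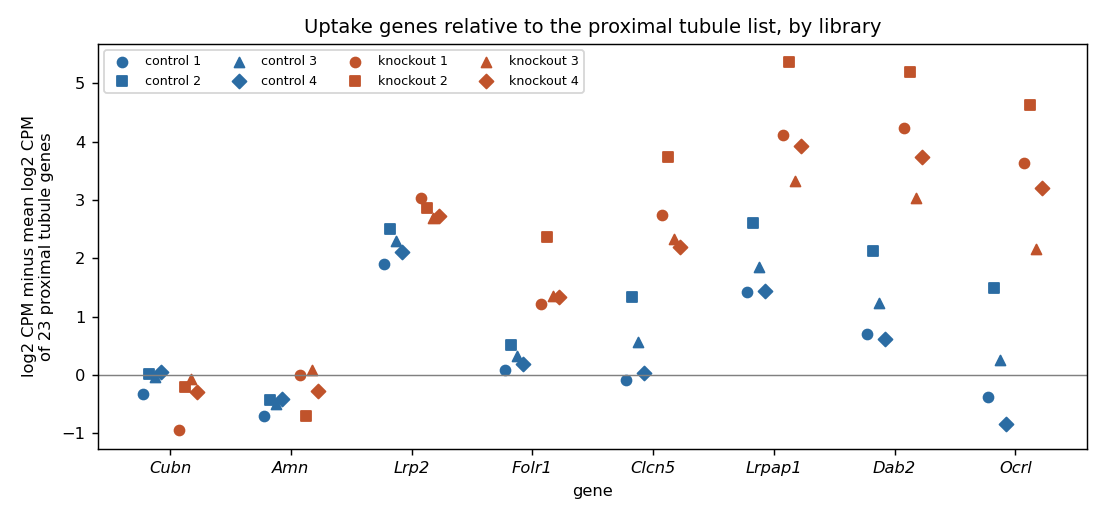
Log2 CPM of each uptake gene minus the mean log2 CPM of the 23 proximal tubule genes in the same library, by library, controls in blue and knockouts in orange. Blue and orange points mix for Cubn and Amn, and all orange points lie above all blue points for the other 6 genes.

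The 5 genes called lower varied together also inside each genotype. Pearson correlations of log2 CPM over the 8 libraries ran from 0.91 to 1.0 for their 10 pairs, from 0.97 to 1.0 within the 4 controls and from 0.76 to 1.0 within the 4 knockouts. Clcn5 followed them at 0.89 to 0.92. Dab2 correlated with Lrp2 at 0.61 over all libraries, although the values within genotype were 0.95 and 0.78. Ocrl was negatively correlated with each of the other 7 over all libraries, from −0.94 with Folr1 to −0.44 with Dab2. Its values ran from −0.97 to −0.75 within the controls. Within the knockouts they ran from −0.73 with Lrpap1 to 0.27 with Dab2, with −0.11 for Lrp2. All of these values rest on 8 libraries, or 4 within a genotype, that differ along 1 main axis, and they are descriptions.

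Genes with a pattern like that of Lrp2 were many, and those like Dab2 were few. Among 12084 genes averaging 5 CPM or more, 423 had r over 0.95 with Lrp2 and 7 with Dab2. The 5 nearest to Lrp2 were Ggt1 (0.999), a brush border peptidase that is also in the proximal tubule list, then Slc23a1 (0.998), an ascorbate transporter, Slc39a5 (0.997), a zinc transporter, Slc7a9 (0.997), a subunit of the cystine transporter, and Slc22a19 (0.997), an organic anion transporter. Their log2 fold changes were −2.88, −2.62, −2.65, −2.21 and −4.90. The 5 nearest to Dab2 were Gamt (0.994), the methyltransferase of creatine synthesis, Lrrc8d (0.977), Por (0.968), the reductase of microsomal cytochromes, Slc16a10 (0.967), an aromatic amino acid transporter, and Flii (0.959). Their log2 fold changes lay between −0.12 and −0.03, with adjusted p values of 0.438 to 0.850. Each r is over 8 libraries and carries no test.

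The wider uptake route was described with 90 further genes in 6 lists, all of which passed the filter. Of these 18 were called lower and 5 higher, shares of 20.0% and 5.56%, with a median log2 fold change of −0.19. Over all tested genes the shares were 8.27% lower and 6.61% higher, against which the edgeR calls of each list below can be read. No such share is given here for the counts at an unadjusted p under 0.05. The counts changed with single libraries: 0 lower and 0 higher without control replicate 3 or knockout replicate 4, 0 and 1 without control replicate 1 or knockout replicate 2, 1 and 1 without knockout replicate 1, 2 and 2 without control replicate 4, 43 and 8 without control replicate 2, and 21 and 7 without knockout replicate 3. Over all genes, 3598 were called lower and 3486 higher without control replicate 2, and 1742 and 1450 without knockout replicate 3. The fits without another library called 43 to 348 lower and 110 to 356 higher over all genes. DESeq2 called 31 lower and 7 higher, against 2509 and 1997 over all genes. In the adrenal covariate fit the counts were 6 and 1 (638 and 620 over all genes). With the Y-linked covariate they were 10 and 5 (1039 and 1040 over all genes).

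Among 21 genes of endosomal acidification, 7 were called lower and 0 higher (14 and 0 at an unadjusted p under 0.05, 11 and 0 with DESeq2), and 20 of the 21 fitted changes were negative (median −0.36). Atp6v0a4, a proton pump subunit of intercalated and proximal tubule cells, went from 72.0 ± 38.0 to 14.3 ± 9.27 CPM (−2.33 on the log2 scale, with SE 0.56 and adjusted p = 0.0298), with overlapping groups. Clcn3, a relative of ClC-5, fell by 0.36 on the log2 scale (adjusted p = 0.0247) and Atp6v1b2, a subunit found in most cells, by 0.50 (adjusted p = 0.0289). For Clcn3 and Atp6v1b2 all knockouts lay below all controls.

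Of 11 genes that handle ligands and vitamins, 5 were called lower and 1 higher (median −0.31). Tcn2, the transcobalamin that carries vitamin B12 and is taken up by megalin, went from 183 ± 76.4 to 66.0 ± 14.8 CPM (−1.47 on the log2 scale, with SE 0.31 and adjusted p = 0.0225). Cd320, the cellular receptor of transcobalamin, fell by 0.35 (adjusted p = 0.0193), and Slc19a1, the reduced folate carrier, fell by 0.99 (adjusted p = 0.0207). Slc46a1, the proton-coupled folate transporter, and Abcd4, which works in the release of B12 from lysosomes, changed by −0.62 and −0.51 (adjusted p = 0.0261 and 0.0331). Folr2, the folate receptor of macrophages, was the member called in the other direction, from 1.14 ± 0.287 to 2.28 ± 0.389 CPM (log2 fold change 0.99, adjusted p = 0.0302), beside the higher macrophage sum given above. Folr2 is not in the macrophage list, and the part of macrophages in its change was not tested.

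Among 11 relatives of megalin, 3 were called (median 0.15), with Lrp1 and Lrp4 higher. Lrp1, a large relative of megalin made by fibroblasts and macrophages among others, went from 114 ± 12.7 to 161 ± 12.5 CPM (0.49, SE 0.09, adjusted p = 0.0168), and Lrp4 rose by 0.54 (adjusted p = 0.0202). For Lrp1 and Lrp4 all knockouts lay above all controls. A stromal list of 6 genes had 2 called higher (Pdgfra and Fbn1) and summed to 2080 to 2810 CPM in controls and 2350 to 3970 CPM in knockouts. Its part in the change of Lrp1 was not tested.

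Of 20 coat and adaptor genes, the general machinery of endocytosis, 2 were called lower and 2 higher (median −0.16), and 8 and 3 passed at an unadjusted p under 0.05 and 6 and 2 with DESeq2. Cltb, a clathrin light chain, and Gipc1, an adaptor that binds megalin, changed by −0.57 and −0.53 (adjusted p = 0.0387 and 0.0468), and Hip1 and Fcho2, which act in the coated pit, by 0.29 and 0.40 (adjusted p = 0.0264 and 0.0465). Of 17 early endosome and recycling genes, 1 was called, Rab11a, the small GTPase of the recycling endosome (−0.41, adjusted p = 0.0428). The list had 8 lower and 2 higher at an unadjusted p under 0.05, and 4 and 1 with DESeq2. Of 10 lysosomal genes, 2 were called lower, the protease Lgmn (−0.97, adjusted p = 0.0346) and the membrane protein Lamp1 (−0.46, adjusted p = 0.0373), while 5 were lower and 2 higher at an unadjusted p under 0.05, and 3 and 1 with DESeq2.

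**Figure D4:**
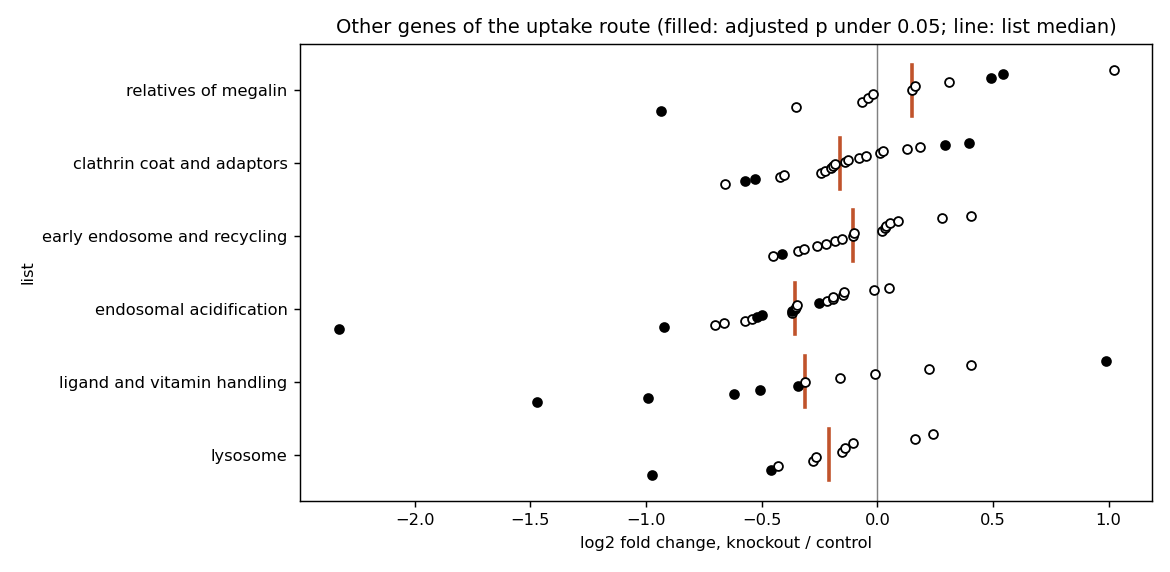
Log2 fold change, knockout over control, of 90 other genes of the uptake route in 6 lists, 1 point per gene, filled where the adjusted p was under 0.05, with the list median as an orange line. The medians run from −0.36 for endosomal acidification to 0.15 for the relatives of megalin, and Atp6v0a4 is the leftmost point at −2.33.

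The start regions of the 3 receptor complex genes, which fell together, and of Dab2, which was not called, are shown so that their letters can be compared. RefSeq windows (GRCm38.p6) of 300 bases, from 250 before to 50 after the start, were found for 7 of the 8 genes, with a second start for Dab2 and Clcn5. Folr1 had none in the table. They are written 5′ to 3′ on the gene's strand. Capitals mark matches, on either strand, to the GC box GGGCGG (in 35.7% of 32851 windows of this length) and to the HNF1 motif GTTAAT (in 7.10%). No 2 of the motifs overlap in the windows shown. The windows are those of Lrp2 (chr2:69585980-69586279, minus strand), Cubn (chr2:13491827-13492126, minus), Amn (chr12:111270846-111271145, plus) and the starts of Dab2 (chr15:6299539-6299838 and chr15:6386498-6386797, plus).
Lrp2: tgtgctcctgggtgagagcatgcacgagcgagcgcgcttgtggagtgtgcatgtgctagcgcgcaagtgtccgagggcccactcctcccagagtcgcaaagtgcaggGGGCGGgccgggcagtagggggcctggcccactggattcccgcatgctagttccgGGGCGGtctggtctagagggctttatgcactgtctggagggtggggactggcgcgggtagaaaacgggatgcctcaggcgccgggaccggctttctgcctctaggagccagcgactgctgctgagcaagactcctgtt
Cubn: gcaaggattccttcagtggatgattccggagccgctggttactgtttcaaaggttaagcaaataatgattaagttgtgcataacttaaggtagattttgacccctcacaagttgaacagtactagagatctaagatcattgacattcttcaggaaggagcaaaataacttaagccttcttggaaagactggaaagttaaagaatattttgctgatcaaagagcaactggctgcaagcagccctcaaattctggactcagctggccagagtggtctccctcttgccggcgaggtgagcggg
Amn: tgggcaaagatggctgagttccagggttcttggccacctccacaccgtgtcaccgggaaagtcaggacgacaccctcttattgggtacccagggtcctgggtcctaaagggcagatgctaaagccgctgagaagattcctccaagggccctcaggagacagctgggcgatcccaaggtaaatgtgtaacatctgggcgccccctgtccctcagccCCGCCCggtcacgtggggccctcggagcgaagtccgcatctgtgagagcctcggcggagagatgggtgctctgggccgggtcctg
Dab2, upstream start: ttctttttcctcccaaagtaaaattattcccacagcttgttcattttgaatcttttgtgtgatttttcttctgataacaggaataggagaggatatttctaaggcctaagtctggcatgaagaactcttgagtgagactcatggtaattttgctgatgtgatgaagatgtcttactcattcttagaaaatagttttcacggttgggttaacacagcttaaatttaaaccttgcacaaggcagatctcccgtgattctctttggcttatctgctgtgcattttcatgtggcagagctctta
Dab2, downstream start: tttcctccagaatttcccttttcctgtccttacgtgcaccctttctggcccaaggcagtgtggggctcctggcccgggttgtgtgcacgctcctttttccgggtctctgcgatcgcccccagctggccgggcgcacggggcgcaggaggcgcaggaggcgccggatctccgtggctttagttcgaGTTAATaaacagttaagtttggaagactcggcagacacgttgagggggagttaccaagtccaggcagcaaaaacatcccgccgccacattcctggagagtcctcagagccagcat

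The Lrp2 window is 65.0% G and C with 20 CpG and has GC boxes at 143 and 88 bases before the start. The Amn window is 62.3% G and C with 15 CpG and 1 GC box, at 35 bases. The Cubn window is 44.3% G and C with 5 CpG and none of the motifs searched, although its transcript varied with those of Lrp2 and Amn. The Dab2 windows are 37.7% G and C with 2 CpG at the upstream start and 59.3% with 19 CpG at the downstream start, so base composition does not divide Dab2 from the receptor genes. The median over all windows was 52.7% and 7 CpG. The HNF1 motif was found in 1 of the 9 windows, 65 bases before the downstream start of Dab2. The HNF4 motif CAAAGTCCA (0.475% of windows) was in none of them. The TATA box letters TATAAA (13.6%) were in 1, at 172 bases before a start of Clcn5. The Lrpap1 window, not shown, is 61.3% G and C with 18 CpG and has 5 GC boxes. A match is a description of letters, and a missing one says nothing of binding.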

How the data were processed

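The deposited files hold raw read counts for each gene, as whole numbers, in 1 table per library and 1 for the series. Both hold the same values, and 0 entries name no gene. Exon coordinates and summed exon length come with them, per the file headers. Per the submitters' processing notes, Trimmomatic 0.36, STAR 2.5.2b, featureCounts (Subread 1.5.2) and DESeq2 were used with GRCm38. Settings for strand and for reads that match several genes are not given in the sources used here. Libraries were made from oligo-dT selected RNA of frozen kidney with a NEBNext Ultra kit, per the labels' protocols.

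Symbols came from a reference table of mouse gene names and matched 48970 of 49315 IDs, and overlapping genes from the GENCODE annotation of GRCm38. Counts were scaled by TMM, filtered with filterByExpr and compared by genotype in edgeR 4.0.16 (R 4.3.3) by its quasi-likelihood test, without covariates. P values were Benjamini-Hochberg adjusted over all 18485 genes, and a call is an adjusted p under 0.05. CPM uses TMM library sizes, and log2 CPM a prior count of 2. In a library 1 count equals at most 0.0501 CPM, which limits precision for low genes. Two-sided exact permutation tests covered 70 assignments, 1 test for each of 8 genes, with no adjustment over these genes. This departs from the plan, which had one, since the genes were picked with results known. The fit was tested on simulated data.

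The members and all lists were chosen with earlier results of these data known. Genes are named by rule: Kdm1a, the members, up to 3 called genes of smallest adjusted p per list, called genes that go against their list, and the 5 genes nearest to Lrp2 and to Dab2 by r, passing over predicted genes, pseudogenes and sex-linked transcripts. Slc46a1, Abcd4, Gipc1 and the macrophage and stromal genes fall outside the rule and were named after their values were seen. 1 gene that the rule names is not reported here. The labels do not say whether the replicate numbers pair the libraries. Same-numbered deviations correlated at −0.11, 0.33, 0.23 and −0.06, with no value for differently numbered libraries to set beside them. Of 5 thick ascending limb genes 4 were called lower, of 5 podocyte genes 2 lower, and of 4 tested principal cell genes 1 higher. Of 12 adrenal genes 10 were tested and edgeR called 0 (6 higher at an unadjusted p under 0.05, 4 with DESeq2). Of the 4 Y-linked genes 0 were called, at an unadjusted p under 0.05 or with DESeq2. No 2 libraries agreed within sampling noise (chi-square per degree of freedom of at least 11.0). Alternatives were DESeq2 1.42.0 and its size factors, limma 3.58.1 voom with sample weights, 2 other filters, the replicate block, covariates for Y-linked and adrenal transcripts, subsets of libraries, and another prior count or list median for the relative values.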

Additional observations from a re-analysis of the deposited data

How the results depend on the processing

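The sign of all 8 members was the same in 11 other analyses of all or part of the libraries, and in the fits that left out 1 library it turned only for Dab2, which ran from −0.1515 to 0.01471, the latter without control replicate 4. The replicate block called 3229 genes, 1748 lower and 1481 higher, and 5 members, and changed the call of no member. With the block the standard error fell from 0.457 to 0.243 for Lrp2 and from 0.59 to 0.381 for Cubn. Among the members it rose only for Ocrl, from 0.097 to 0.108. Whether the numbers pair the libraries is not known here. DESeq2 called 4506 genes (2509 lower, 1997 higher), limma-voom 8302 (4241 and 4061), and the fit without control replicate 2 and knockout replicate 3 7903 (4112 and 3791). In these 3 analyses and with the Y-linked covariate 1 member, Ocrl, was called higher. The Y-linked covariate left 3 members called lower. The adrenal covariate left 1258 genes (638 lower, 620 higher) and 2 members, both lower. Kdm1a changed by −0.2768 (adjusted p = 0.0562) in the 5 libraries with Y-linked transcripts. Without control replicate 2 and knockout replicate 3, the relatives of megalin had 2 called lower and 3 higher. Coat and adaptors had 11 lower and 2 higher, and early endosome 9 lower and 2 higher. Called lower were also 16 in acidification and 7 in the lysosome list. The 6 lists together had 50 lower and 8 higher in this fit. The cause of these shifts was not tested. Leaving out 1 library gave 153 to 7084 calls over all genes (43 to 3598 lower, 110 to 3486 higher), 0 to 7 members called (0 to 6 lower, 0 to 1 higher), 6 to 7 members with a negative change, and −0.2896 to −0.2366 for Kdm1a. By list the lower and higher calls ran from 0 to 2 and 0 to 3 among the relatives of megalin, 0 to 9 and 0 to 2 in coat and adaptors, 0 to 7 and 0 to 2 in early endosome, 0 to 14 and 0 to 0 in acidification, 0 to 5 and 0 to 1 in ligand and vitamin handling, and 0 to 6 and 0 to 0 in the lysosome list. The medians of these lists, in the same order, ran from 0.11 to 0.22, −0.22 to −0.13, −0.19 to −0.07, −0.44 to −0.30, −0.38 to −0.13 and −0.29 to −0.17. Relative to the proximal tubule list, the ranges were 0.53 to 0.729 for Lrp2, −0.409 to −0.114 for Cubn, 0.188 to 0.447 for Amn, 2.502 to 3.218 for Dab2, 1.968 to 2.586 for Clcn5, 1.029 to 1.408 for Folr1, 1.957 to 2.634 for Lrpap1 and 2.862 to 3.727 for Ocrl. Depth limits Amn and Cubn most, with 30 and 43 counts in knockout replicate 2.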
